A study of Mus musculus with 17 samples.

Results

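The receptor components described here were *Cd79a*, *Cd79b*, *Syk*, *Lyn*, *Btk*, *Blnk*, *Plcg2*, *Cd22* and *Ptpn6*, 9 of the 21848 genes in the count table. They were chosen by name for their place in B cell receptor signalling, by a rule that uses no measured value, although earlier results of these data were known. All 9 passed the filter on low counts in each experiment. Their UMIs were summed over the germinal centre (GC) B cells of each mouse, in 39 mice of a time course and in CDK2hi and CDK2low cells of 7 further mice.

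In the time course, B cells carrying the NP-specific B1-8hi heavy chain were transferred into CD45.1 mice primed with OVA, which were then immunised with NP-OVA. Anti-DEC-OVA, an antibody that carries OVA to DEC-205 on B cells and so lets them present it to T cells, was given at 7 dpi. As the study describes the transfer, a small part of these cells had DEC-205 and the others lacked its gene *Ly75*. The study follows the DEC-205-bearing cells over time, whereas the labels name no gate for the cells profiled. The groups were 0 h (Day7, 9 mice), 48 h untreated (Day9, 6 mice), 48 h treated (Day9DEC, 9 mice), 72 h untreated (Day10, 8 mice) and 72 h treated (Day10DEC, 7 mice), spread over a larger pool of 25 mice and a smaller pool of 14 mice. In this order, the groups had 6, 4, 6, 5 and 4 mice in the larger pool and 3, 2, 3, 3 and 3 in the smaller pool. With so few mice, a call lost in the smaller pool alone can reflect less power. In the CDK2 experiment, all 7 mice had received anti-DEC-OVA 72 h earlier, and GC B cells that carry a DHB-tdTomato reporter at *Rosa26*, with or without H2B-GFP, were sorted by imaging into cells with cytoplasmic (C, CDK2hi) and nuclear (N, CDK2low) reporter. The B1-8hi pairing was seen in 4693 of 7448 CDK2hi cells and in 2728 of 4385 CDK2low cells. In the time course it was seen in 32.15% to 77.7% of the cells of a mouse, and the share differed between groups. Cells with and without the pairing entered the main fits. The CDK2hi and CDK2low cells were 1 pool each, so that population and library cannot be told apart. The reporter allele was built on a *loxP*-stop-*loxP* allele, and the methods list *Cd79a*Cre mice, which carry Cre in the *Cd79a* locus, among the strains used, but whether the reporter cells of this sort carried that allele is not given in the sources used here. Adult male and female mice on a C57BL/6J background were used, and the sex and age of single mice are not given in the sources used here.

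After the filters, 13625 and 10073 cells remained in the larger and smaller pool and 7448 and 4385 in the CDK2hi and CDK2low pools, between 278 and 1679 per mouse and population. Total UMIs per mouse ranged from 1984426 to 20394909. The smallest sum for a member in any mouse was 414 UMIs, for *Btk*. Pools shared between 6 and 94 cell barcodes, at most 0.57% of the smaller pool. The smaller pool stood apart from the larger one, with mean mitochondrial shares of 4.62% to 5.78% per mouse against 2.30% to 2.81%. A term for the pool was therefore part of the main fit of the time course. The label GC B cell was checked against markers. All 5 B lineage markers and all 8 GC markers were detected in every group, with summed GC markers of 1904 to 2762 CPM per mouse, whereas 8 T cell markers summed to 4.40 to 95.6 CPM. The 7 plasma cell markers, also detected in every group, summed to 863 to 3044 CPM, so that this list did not set the cells apart from plasma cells.

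The B cell receptor consists of a membrane immunoglobulin and a heterodimer of CD79A and CD79B, whose cytoplasmic tails carry the tyrosines that start signalling. The Src-family kinase LYN phosphorylates these tails, SYK binds to them, and the adaptor BLNK brings BTK to PLCG2, which releases the second messengers that raise calcium and activate protein kinase C. LYN also phosphorylates the sialic-acid-binding receptor CD22, which recruits the phosphatase SHP-1, encoded by *Ptpn6*, and dampens the signal. In GC B cells, receptor signalling is known to be restrained in comparison with naive cells, and T cell help acts beside it in selection.

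The genes lie on different chromosomes in GRCm39 (GENCODE vM39), the build that the submitters' processing notes name as mm39. Only *Cd79a* (chr7:24596740-24601622, plus strand) and *Cd22* (chr7:30564827-30579767, minus strand) share 1. The others were *Cd79b* (chr11:106202167-106205588), *Syk* (chr13:52736696-52802828), *Lyn* (chr4:3678061-3813122), *Btk* (chrX:133443084-133484319), *Blnk* (chr19:40916595-40982978), *Plcg2* (chr8:118224988-118361881) and *Ptpn6* (chr6:124697670-124715840), all protein-coding. UMIs were counted per gene, without a split into exons.

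The promoters of 7 members were matched in a RefSeq table of GRCm38.p6, *Syk* with a pair of starts, and *Cd79b* and *Lyn* had no entry. The 250 bases upstream of each start were searched on both strands for motifs linked to B lineage or cycling genes. The EBF core CCCNNGGG was in 1 of the 8 windows of members (*Cd22*) and in 11.8% of all 32851 windows, the octamer ATGCAAAT in 1 (*Blnk*) and in 1.60%, and the PU.1 core GAGGAA in 2 (*Cd79a* and a start of *Syk*) and in 23.2%. The E2F core TTTCCCGC, in 0.895% of all windows, and the cyclic AMP response element TGACGTCA, in 1.55%, were in none of the 8. These counts are descriptions of letters, and with 8 windows no share can be set apart from that of all promoters. The windows of *Cd79a* (chr7:24897247-24897496, plus strand), *Cd22* (chr7:30879029-30879278, minus strand) and *Blnk* (chr19:40994222-40994471, minus strand) are shown 5′ to 3′ because each holds 1 of these motifs, in capitals.
Cd79a: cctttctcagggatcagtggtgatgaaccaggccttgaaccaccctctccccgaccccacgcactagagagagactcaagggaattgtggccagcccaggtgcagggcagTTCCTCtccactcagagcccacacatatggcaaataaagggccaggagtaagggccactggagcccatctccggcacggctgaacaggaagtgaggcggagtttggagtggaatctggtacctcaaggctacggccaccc
Cd22: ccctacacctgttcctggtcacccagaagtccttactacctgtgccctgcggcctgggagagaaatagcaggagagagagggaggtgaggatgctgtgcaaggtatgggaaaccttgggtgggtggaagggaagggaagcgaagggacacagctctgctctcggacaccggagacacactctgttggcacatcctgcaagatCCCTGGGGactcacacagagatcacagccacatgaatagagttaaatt
Blnk: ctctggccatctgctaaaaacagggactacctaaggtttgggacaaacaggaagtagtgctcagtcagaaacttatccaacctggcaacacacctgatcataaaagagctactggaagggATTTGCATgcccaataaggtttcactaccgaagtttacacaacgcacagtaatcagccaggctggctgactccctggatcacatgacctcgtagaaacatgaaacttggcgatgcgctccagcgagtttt

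At 48 h, 8 of the 9 components made up a smaller share of the UMIs of treated than of untreated cells, and none a larger one (edgeR quasi-likelihood test, adjusted p under 0.05). Across the 10220 genes tested, 21.1% were lower and 26.3% higher. The median log2 fold change was -0.25 for the 9 members and 0.01 for all genes. CPM of a member in a mouse are UMIs scaled to a common library total after TMM normalisation. CPM within a cell-cycle phase and summed CPM of markers were scaled to plain library totals, without TMM. In UMIs summed per mouse, fewer cells of a kind and less RNA per cell cannot be told apart.

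Both genes of the receptor pair, the signalling subunits of the receptor, fell. *Cd79a* was at 1170 to 2210 CPM in the 6 untreated mice (median 1990) and at 965 to 1768 CPM in the 9 treated mice (median 1594). *Cd79b* was at 1127 to 1873 CPM (median 1738) and at 851 to 1386 CPM (median 1268). Within each pool, every treated mouse lay below every untreated mouse for both genes, whereas across pools the ranges overlapped, since both genes had lower CPM in the smaller pool. The fitted log2 fold change was -0.41 ± 0.05 (SE, n = 9 and 6 mice, edgeR adjusted p = 4.59e-08) for *Cd79b* and -0.30 ± 0.05 (edgeR adjusted p = 3.20e-06) for *Cd79a*.

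Of the proximal kinases, *Lyn*, the Src-family kinase that acts on both the activating and the inhibitory arm, had the lowest fitted fold change of the 9 members, close to those of *Cd22* and *Cd79b*. It was at 348 to 454 CPM in untreated mice (median 399) and at 271 to 308 CPM in treated mice (median 292), without overlap in either pool or across them. Its log2 fold change was -0.46 ± 0.06 (edgeR adjusted p = 4.57e-08). *Syk* was at 310 to 367 CPM (median 341) in untreated and at 252 to 313 CPM (median 286) in treated mice, with no overlap within pools, and changed by -0.25 ± 0.06 on the log2 scale (edgeR adjusted p = 5.97e-04). *Btk*, the Tec-family kinase, was at 174 to 204 CPM (median 191) and at 159 to 177 CPM (median 172), and its groups overlapped in the smaller pool. Its change of -0.16 ± 0.05 on the log2 scale passed the test (edgeR adjusted p = 0.00774). In the smaller pool alone the calls on *Syk* and *Btk* were lost.

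Of the adaptor and the effector, *Blnk* was called and *Plcg2* was not. *Blnk* was at 565 to 634 CPM in untreated mice (median 590) and at 487 to 550 CPM in treated mice (median 513), with no overlap, a log2 fold change of -0.20 ± 0.03 (edgeR adjusted p = 6.55e-06). *Plcg2* was at 249 to 304 CPM (median 273) and at 235 to 283 CPM (median 253). Its groups overlapped in the larger pool, and its log2 fold change of -0.08 ± 0.05 was the only one that did not pass the test (edgeR adjusted p = 0.178, 0.0433 without Day9DEC replicate 3). It was called lower without TMM (-0.16, edgeR adjusted p = 0.012) and with only the groups compared (-0.10, edgeR adjusted p = 0.0174).

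Both inhibitory genes were lower. *Cd22* was at 368 to 427 CPM in untreated mice (median 379) and at 272 to 297 CPM in treated mice (median 292), so that the groups were far apart in both pools. Its log2 fold change was -0.42 ± 0.05 (edgeR adjusted p = 2.83e-08). *Ptpn6* was at 334 to 424 CPM (median 403) and at 279 to 406 CPM (median 363), overlapping in the larger pool, with a log2 fold change of -0.18 ± 0.05 (edgeR adjusted p = 0.00295). For 6 of the 9 members (all but *Btk*, *Plcg2* and *Ptpn6*) the treated mice lay below the untreated mice in both pools, as did 8.84% of all genes tested.

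**Figure D1:**
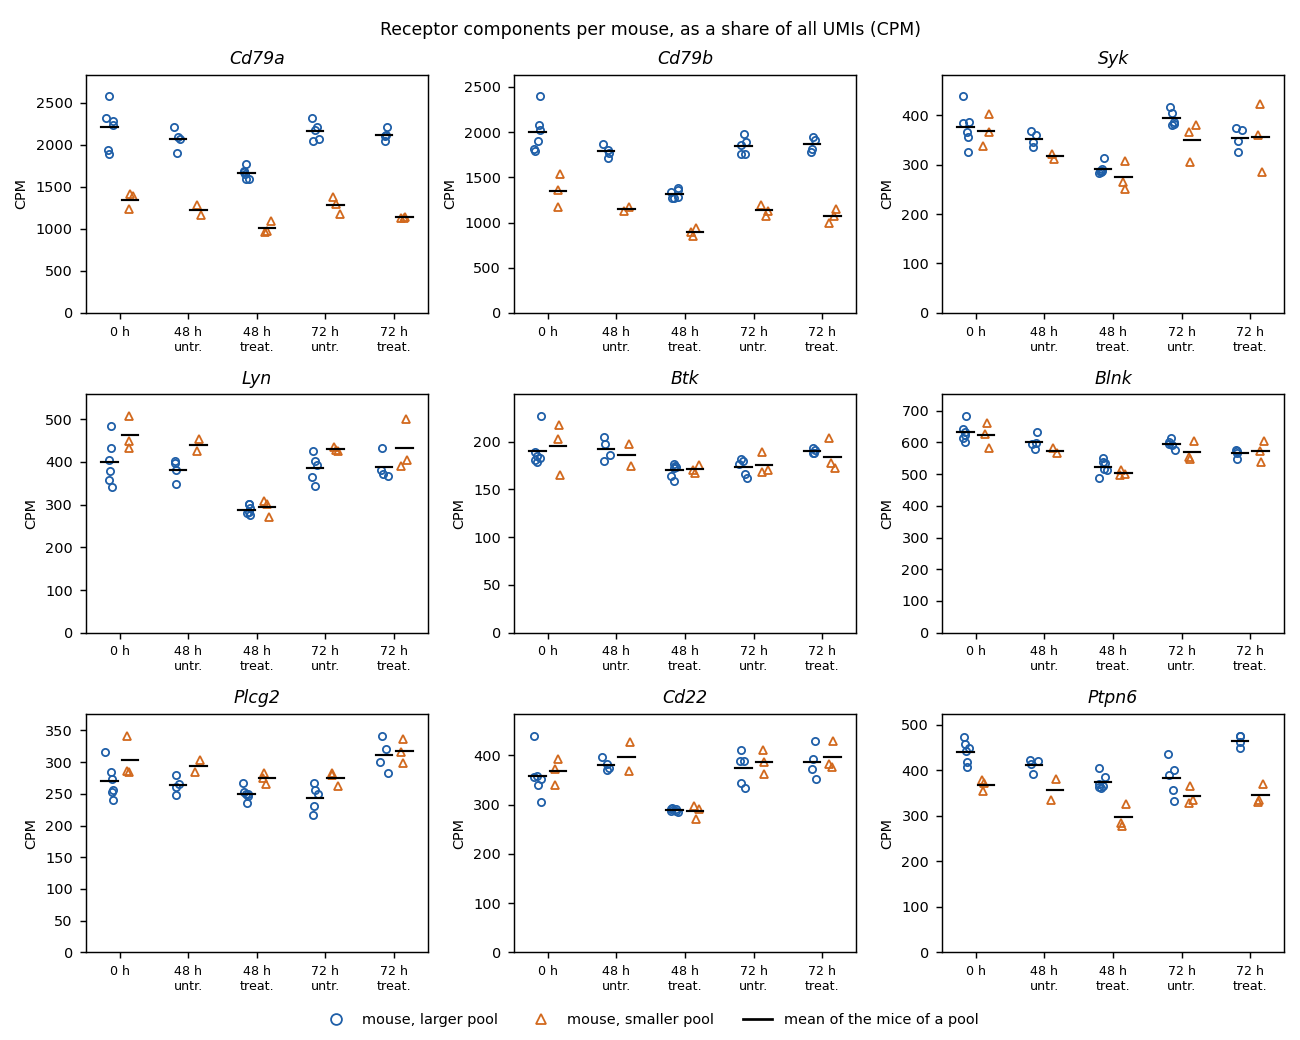
CPM (vertical axes, from 0) of the 9 genes in each mouse of the time course by group (horizontal axes). Circles are mice of the larger pool, triangles mice of the smaller pool, and bars the mean of the mice of a pool. Treated mice at 48 h sit lowest for *Lyn* (271 to 308 CPM) and *Cd22* (272 to 297 CPM), and *Cd79a* and *Cd79b* differ in level between the pools.

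Per cell, the order was the other way round. The treated cells at 48 h had median UMI counts of 10004 to 14467 per cell, against 5030 to 7455 in untreated mice, and the UMIs per cell of all 9 members were higher in every treated mouse than in any untreated mouse of its pool, as for 78.8% of the genes tested. The median over untreated and treated mice was 17.2 and 24.3 UMIs per cell for *Cd79a*, 3.39 and 4.15 for *Lyn* and 3.26 and 4.20 for *Cd22*, with ratios of treated to untreated means between 1.14 and 1.62 over the members and pools. No test was run on UMIs per cell. A lower CPM of a member at 48 h is therefore a smaller share of a larger number of UMIs, and total RNA, cell size and capture were not measured apart.

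**Figure D2:**
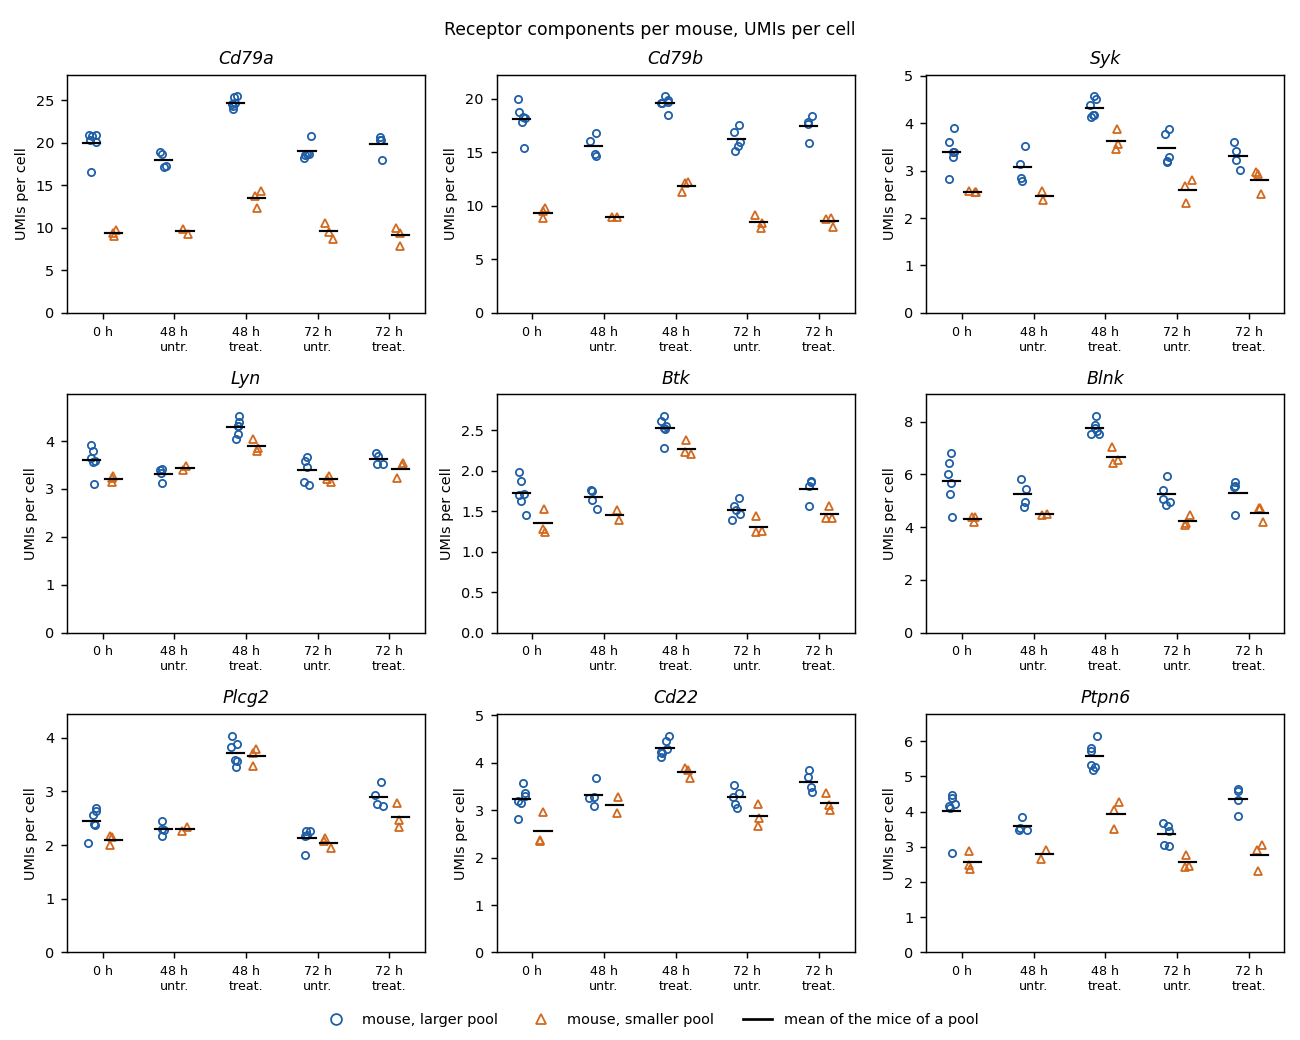
UMIs per cell (vertical axes, from 0) of the 9 genes in each mouse of the time course by group (horizontal axes), with circles for the larger pool, triangles for the smaller pool and bars for the mean of the mice of a pool. For each gene and in each pool, the treated mice at 48 h lie above the untreated mice at 48 h.

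Cell-cycle phase moved with the treatment. Cells scored G1 were 15.3% to 24.2% of the cells of treated mice at 48 h and 44.0% to 56.9% in untreated mice. In all 39 mice, the CPM of each of the 9 members was lower in cells scored S and in cells scored G2M than in cells scored G1, as for 5.12% of the genes tested. The median log2 ratio of G2M to G1 was -0.98 for *Cd79b*, -0.94 for *Lyn* and -0.67 for *Cd79a* and *Cd22*, and was nearest to 0 for *Btk* (-0.31) and *Ptpn6* (-0.35). With only cells scored G1, 5 of the 9 members passed the test at 48 h, all of them lower (*Cd22* -0.33, *Lyn* -0.24, *Btk* -0.22, *Ptpn6* -0.21 and *Cd79b* -0.19 on the log2 scale). *Cd79a* (-0.07, adjusted p = 0.397), *Syk* (-0.03, adjusted p = 0.885) and *Blnk* (-0.14, adjusted p = 0.0759) no longer did by edgeR, nor did *Plcg2* (-0.08). In that fit 4.09% of genes were lower, and 711 genes passed in either direction, against 4843 with all cells. Summed light zone markers were at 368 to 522 CPM in treated and 787 to 946 CPM in untreated mice, naive or memory B cell markers at 108 to 212 and 254 to 445 CPM, and B lineage markers at 9032 to 12750 and 12930 to 18920 CPM. T cell markers were at 4.60 to 10.8 and 17.0 to 22.5 CPM, and plasma cell markers at 1349 to 2757 and 863 to 2120 CPM. Dark zone markers, higher in treated mice, were at 683 to 840 and 513 to 700.5 CPM. They include the cell-cycle genes *Ccnb1* and *Aurka*, and cells scored G2M were 39.5% to 46.9% and 22.7% to 34.4%. The B1-8hi pairing was seen in 70.5% to 77.7% and 62.25% to 67.4% of cells in the larger pool, and in 53.1% to 58.0% and 34.7% to 38.8% in the smaller pool. The part of these in the result was not tested.

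At 72 h, 2 of the 9 members were higher in treated than in untreated mice and none was lower by edgeR, where 4.67% of all genes were higher and 3.88% lower. *Plcg2*, whose product cleaves a membrane lipid into second messengers, was at 216 to 282 CPM in the 8 untreated mice (median 259) and at 283 to 341 CPM in the 7 treated mice (median 316), so that the groups met without overlapping. The share of all genes without overlap was not determined at 72 h. The log2 fold change of *Plcg2* was 0.29 ± 0.05 (edgeR adjusted p = 1.26e-04). It was 0.35 in the larger pool alone (edgeR adjusted p = 0.00125) and 0.20 in the smaller pool alone, where it did not pass (edgeR adjusted p = 0.42), nor did it in cells scored G1 (0.12, edgeR adjusted p = 0.319). *Ptpn6* changed by 0.17 ± 0.05 (edgeR adjusted p = 0.0235). In the larger pool the treated mice (449 to 476 CPM) lay above the untreated mice (332 to 435 CPM), in the smaller pool they overlapped (331 to 369 and 328 to 365 CPM), and there and in cells scored G1 the log2 fold change was -0.0028 and -0.0008. The call on *Ptpn6* was lost without Day10 replicates 1 or 4 or Day10DEC replicates 1, 3 or 4, with log2 fold changes of 0.14 to 0.17 and edgeR adjusted p of 0.0632 to 0.0679. For the other 7 members the log2 fold changes were between -0.09 and 0.10, with edgeR adjusted p of 0.212 to 0.978. In cells scored G1, however, *Cd79a* was lower in treated mice (-0.24 ± 0.05, edgeR adjusted p = 0.00069) and was the only member called, where 4.95% of genes were lower. The share of cells scored G1 was 33.6% to 56.6% in treated and 39.1% to 56.1% in untreated mice. Myeloid cell markers summed to 128.5 to 274 CPM in treated mice (median 248) and 131 to 210.5 CPM in untreated mice (median 182), and naive or memory B cell markers to 205.5 to 336 and 238 to 477 CPM. GC markers summed to 2365 to 2629 and 2261 to 2395 CPM and light zone markers to 661 to 890 and 809 to 1005 CPM. Their part in the result was not tested.

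The effect of treatment at 72 h minus that at 48 h was above 0 for all 9 members and passed the test for 8, where 13.0% of all genes passed with a difference above 0. It was 0.47 ± 0.08 on the log2 scale for *Lyn* and 0.46 ± 0.07 for *Cd22* (edgeR adjusted p = 5.61e-05 and 1.55e-05), 0.38 ± 0.07 for *Plcg2* and 0.39 ± 0.07 for *Cd79b*. *Syk* gave 0.16 ± 0.09 (edgeR adjusted p = 0.143). In the smaller pool alone 2 members passed. In cells scored G1 none of the 9 passed, where 0.898% of genes passed with a difference above 0, and 6 had an unadjusted p under 0.05, as did 15.1% of genes. The difference there was below 0 for *Cd79a* (-0.17, edgeR adjusted p = 0.205) and *Syk* (-0.07, edgeR adjusted p = 0.837) and 0.03 to 0.24 for the other 7. This fit was added after the data were seen.

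Among treated mice, all 9 members were higher at 72 h than at 48 h, where 22.3% of genes were higher and 26.8% lower. The rises ran from 0.14 ± 0.05 on the log2 scale for *Btk* (edgeR adjusted p = 0.0153) and 0.14 ± 0.03 for *Blnk* to 0.43 ± 0.05 for *Cd22* and 0.47 ± 0.06 for *Lyn* (edgeR adjusted p = 1.11e-08). In CPM, 6 of the 9 did not overlap in either pool (*Cd22*, *Cd79a*, *Cd79b*, *Lyn*, *Plcg2* and *Ptpn6*), as for 7.73% of genes. In UMIs per cell the direction was again opposite, with all 9 members below in every mouse at 72 h, as for 72.3% of genes. In cells scored G1 none of the 9 passed, with log2 fold changes between -0.05 (*Cd79a*) and 0.14 (*Cd22*) and edgeR adjusted p of 0.159 to 0.909. Of the 9, 4 had an unadjusted p under 0.05 there, as did 17.6% of genes. By edgeR 1.2% of genes were higher in that fit, and 466 passed in either direction, against 5019 with all cells. In treated mice at 48 h and 72 h, light zone markers were at 368 to 522 and 661 to 890 CPM, naive or memory B cell markers at 108 to 212 and 205 to 336 CPM, and B lineage markers at 9032 to 12750 and 12330 to 20040 CPM, and 15.3% to 24.2% and 33.6% to 56.6% of cells were scored G1. GC markers were at 1937 to 2259 and 2365 to 2629 CPM and plasma cell markers at 1349 to 2757 and 936 to 1497 CPM. The B1-8hi pairing was seen in 53.1% to 77.7% and 32.15% to 69.2% of cells. Their part in the result was not tested.

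Against 0 h, all 9 members were lower in treated mice at 48 h, where 24.7% of genes were lower and 27.1% higher. With only cells scored G1, 5 of the 9 passed, where 2.42% of genes were lower, and *Cd22* (-0.09), *Syk* (-0.11), *Btk* (-0.16) and *Plcg2* (-0.04) no longer did. With all cells, *Cd79b* showed the largest change of the 9, -0.60 ± 0.05 on the log2 scale (edgeR adjusted p = 4.23e-13), from a median of 1818 to 1268 CPM, followed by *Lyn* (-0.53 ± 0.05) and *Cd79a* (-0.41 ± 0.04). *Plcg2* was the least changed (-0.11 ± 0.05, edgeR adjusted p = 0.0333), and its call was lost without Day7 replicate 3 or 9 or Day9DEC replicate 7 (edgeR adjusted p = 0.0555 to 0.0959). It was also lost under 6 of 13 other settings, among them each pool alone, thinned cells and cells with the B1-8hi pairing. Groups did not overlap in either pool for 7 members (all but *Btk* and *Plcg2*), as for 6.05% of genes. Per cell, the direction was opposite. The UMIs per cell of 8 members were higher in every treated mouse at 48 h than in any mouse at 0 h of its pool, as for 70.5% of genes, and *Cd79b* overlapped in the larger pool (ratio of means 1.08). Over the 9 members and both pools the ratios of means were 1.08 to 1.735. At 0 h and in treated mice at 48 h, light zone markers were at 686 to 1093 and 368 to 522 CPM, naive or memory B cell markers at 286.5 to 547 and 108 to 212 CPM, and B lineage markers at 14150 to 21770 and 9032 to 12750 CPM, and 37.7% to 68.3% and 15.3% to 24.2% of cells were scored G1. Plasma cell markers were at 879 to 3044 and 1349 to 2757 CPM, and the B1-8hi pairing was seen in 36.8% to 66.7% and 53.1% to 77.7% of cells. Their part in the result was not tested. The 48 h treated mice are the same in this comparison, in that with untreated mice and in that with 72 h.

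Without treatment, 2 of the 9 were lower at 72 h than at 0 h by edgeR, *Ptpn6* (-0.16 ± 0.05, adjusted p = 0.036) and *Cd79b* (-0.16 ± 0.05, adjusted p = 0.0492), where 2.62% of all genes were lower and 1.79% higher. Each member overlapped between the groups in at least 1 pool, and only *Plcg2* in the smaller pool, lower at 72 h, did not overlap within a pool. That pool held 3 mice in each of these groups, and the share of all genes without overlap was not determined for this comparison. The call on *Cd79b* was lost on leaving out any of 12 of the 17 mice, and that on *Ptpn6* on leaving out any of 11, with both changes still between -0.19 and -0.12 on the log2 scale. Under the other settings of the fit, the call on *Cd79b* was lost in 12 of 13 and that on *Ptpn6* in 8 of 13. For the other 7 the log2 fold changes were between -0.14 and 0.07.

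**Figure D3:**
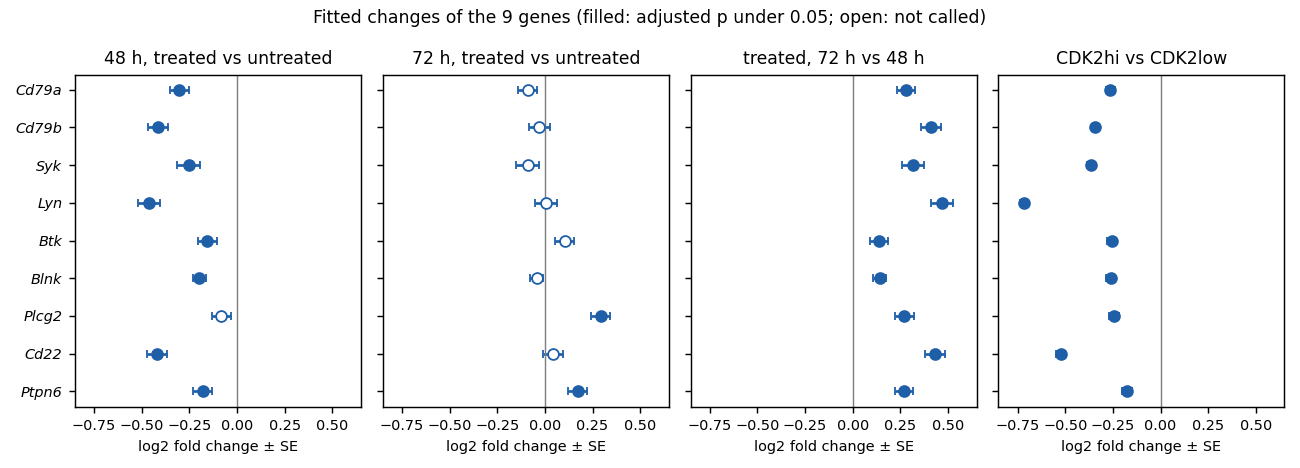
Fitted log2 fold changes (horizontal axes, points with SE) of the 9 genes in 4 comparisons. Filled points passed an adjusted p of 0.05 in edgeR. At 48 h the 8 called members lie below 0, at 72 h only *Plcg2* and *Ptpn6* were called and lie above 0, from 48 h to 72 h with treatment all 9 lie above 0, and in CDK2hi against CDK2low cells all 9 lie below 0.

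CDK2hi and CDK2low cells were compared within mice, without selection by zone. The study's own comparison of these populations took cells with a dark zone expression profile. All 9 members were lower in CDK2hi cells, in each of the 7 mice, where 38.6% of the 10120 genes tested were lower and 36.5% higher (edgeR with a term for the mouse). The median log2 fold change was -0.26 for the members and -0.02 for all genes.

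*Lyn* had the largest change with all cells. In mice M1, M3, M4, M5, M6, M7 and M10, its CPM were 511, 536, 506, 551, 563, 609 and 565 in CDK2low cells and 323, 319, 321, 348, 328, 359 and 336 in CDK2hi cells. No CDK2hi value reached the lowest CDK2low value, and the log2 fold change was -0.72 ± 0.02 (edgeR adjusted p = 1.50e-19). *Cd22* was at 437 to 528 CPM (median 461) in CDK2low and at 285 to 367 CPM (median 333) in CDK2hi cells, also without overlap, a change of -0.52 ± 0.02 (edgeR adjusted p = 2.88e-16).

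*Syk* (median 435 and 336 CPM) changed by -0.37 ± 0.02 and *Cd79b* (median 1922 and 1524 CPM) by -0.34 ± 0.02 on the log2 scale. *Cd79a*, *Blnk*, *Btk*, *Plcg2* and *Ptpn6* changed by -0.26, -0.26, -0.26, -0.25 and -0.18, each with an SE of 0.02 to 0.03 and an edgeR adjusted p of 1.27e-06 or below. Of the 9, 7 did not overlap between the populations, as for 17.4% of genes. *Cd79a* (746 to 975 CPM in CDK2hi and 944 to 1078 in CDK2low cells) and *Ptpn6* overlapped, although each mouse on its own was lower. Per cell, all 9 members were also below in CDK2hi cells without overlap, as for 48.3% of genes, with ratios in the same mouse from 0.42 to 0.73, and the median UMI count per cell was 8939 to 11754 in the CDK2hi and 10563 to 14838 in the CDK2low pool, so that the depth of the libraries moved with the population.

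**Figure D4:**
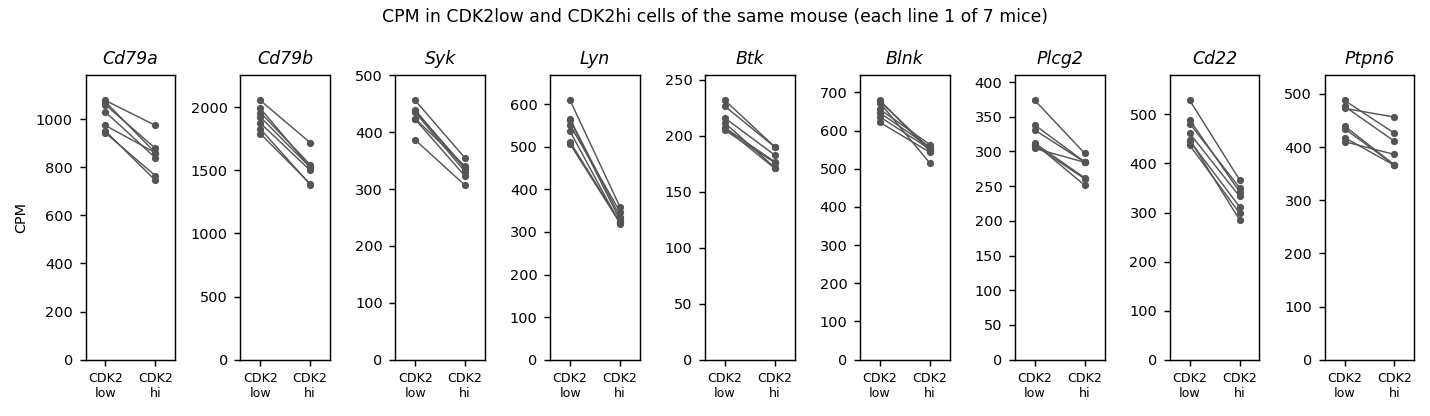
CPM (vertical axes, from 0) of the 9 genes in CDK2low and CDK2hi cells, each line joining the values of 1 of 7 mice. All lines fall towards CDK2hi, most steeply for *Lyn* (506 to 609 against 319 to 359 CPM) and *Cd22*.

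Of CDK2hi cells 12.2% to 19.0% were scored G1 per mouse, and of CDK2low cells 52.7% to 63.0%. When only cells scored G1 were fitted, all 9 members were lower in CDK2hi cells, with log2 fold changes from -0.27 (*Cd79b*) to -0.93 (*Cd22*) by edgeR, where 31.0% of genes were lower. *Cd22* (-0.93 against -0.52), *Plcg2* (-0.47 against -0.25) and *Ptpn6* (-0.43 against -0.18) had values over 1.5 times those of all cells, and these differences between the fits were not tested. Within cells scored S, all 9 were lower in CDK2hi cells in 7 of 7 mice, as for 35.5% of genes. In cells scored G2M, of which the CDK2low pool held 442, *Lyn*, *Syk*, *Btk* and *Blnk* were lower in 7 of 7 mice, as for 21.8% of genes, but *Ptpn6* was higher in CDK2hi cells in 7 of 7 mice (ratio 1.30 to 1.75), as for 10.9% of genes, *Cd22* in 6 of 7 and *Plcg2* in 5 of 7. In CDK2low cells these G2M sums were as low as 77 UMIs per mouse (*Btk*), 99 for *Cd22* and 103 for *Ptpn6*, the phase ratios carry no test, and the phases were scored in each pool on its own. The values within S and G2M and the marker sums were scaled without TMM. The TMM factors with all cells were 0.913 to 0.949 in CDK2hi and 1.05 to 1.09 in CDK2low samples. Without TMM the median log2 fold change of all genes was -0.22, against -0.02 with it. Light zone markers summed to 444 to 572 CPM in CDK2hi and 936 to 1243 CPM in CDK2low cells, naive or memory B cell markers to 106 to 187 and 340 to 561 CPM, and T cell markers to 5.49 to 9.98 and 13.3 to 95.6 CPM. B lineage markers summed to 11640 to 14160 and 19420 to 22090 CPM, myeloid cell markers to 185 to 225 and 228 to 261 CPM, and dark zone markers, higher in CDK2hi cells, to 654 to 758 and 387 to 502 CPM. The dark zone list holds the cell-cycle genes *Ccnb1* and *Aurka*, and cells scored G2M were 45.5% to 57.7% of CDK2hi and 6.79% to 12.5% of CDK2low cells. Their part in the result was not tested.

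The balance within the receptor pair set the CDK2 experiment apart from the time course. The ratio of *Cd79a* to *Cd79b* UMIs, taken within a mouse and so free of any scaling between libraries, was 0.923 to 1.32 in the 39 mice of the time course and 0.518 to 0.577 in the 14 samples of the CDK2 experiment. Between time course groups the median ratio was 1.08 at 0 h, 1.14 and 1.16 in untreated mice at 48 h and 72 h, 1.25 in treated mice at 48 h and 1.13 in treated mice at 72 h. The CDK2 samples matched the 72 h treated mice in time and treatment (0.982 to 1.16), and the groups did not overlap. The low ratio was the same in kind in cells with the B1-8hi pairing (0.516 to 0.593) and in the other cells (0.475 to 0.564), against 0.988 to 1.38 and 0.849 to 1.17 in the time course. The ratios of the other 7 members to *Cd79b* overlapped between the 72 h treated mice and the CDK2 samples, with ratios of medians of 0.942 to 1.13, against 0.484 for *Cd79a*. This difference was noticed in the values and has no test. The experiments differ in the reporter alleles of the cells and in the pool, and the study's methods name more than 1 version of the library kit without assigning them to pools, so that these cannot be told apart. Whether the reporter cells carried Cre in the *Cd79a* locus is not given in the sources used here, and its part in these *Cd79a* values was not tested.

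**Figure D5:**
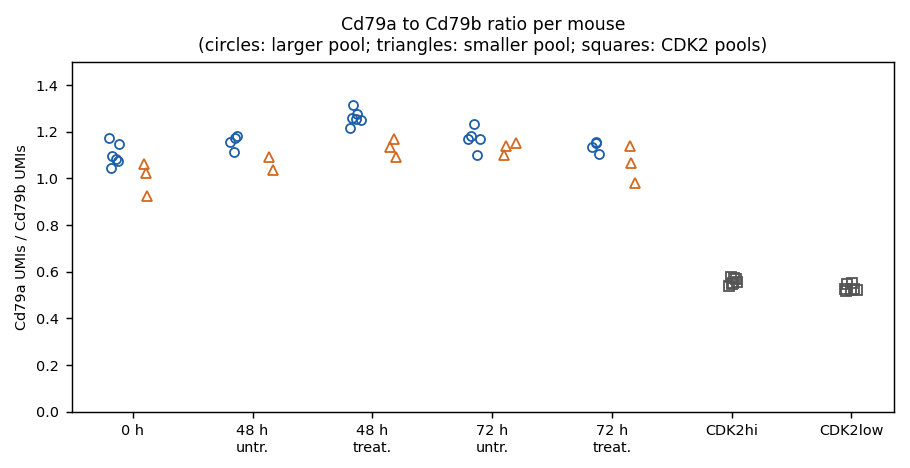
*Cd79a* UMIs divided by *Cd79b* UMIs (vertical axis, from 0) in each mouse, by group (horizontal axis). Circles are the larger and triangles the smaller time course pool, squares the CDK2 pools. The CDK2 samples lie between 0.518 and 0.577 and all time course mice between 0.923 and 1.32.

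Over the 39 mice of the time course, the log2 CPM of members correlated positively after each pool was centred. Pearson's r was 0.254 to 0.948 over the 36 pairs (median 0.653), highest for *Cd79a* with *Cd79b* (0.948) and *Cd79b* with *Lyn* (0.908), and lowest for *Plcg2* with *Blnk* (0.254) and with *Syk* (0.263). The mice share groups, libraries and cell-cycle shares, so that r is a description and carries no p. Differences between groups were left in the values, and r between pairs of other genes was not determined. Among 6807 genes with a mean log2 CPM above 4, the gene outside the members most like *Cd79a* and *Cd79b* was *Siglecg*, a sialic-acid-binding inhibitory receptor (r = 0.966 and 0.952). It was *Ripor2* for *Lyn* (0.964), *Cd86*, a costimulatory ligand, for *Cd22* (0.945), *Dock2* for *Syk* (0.910), *Foxp1*, a transcription factor, for *Blnk* (0.909), *Laptm5* for *Plcg2* (0.867), *Pxdc1* for *Ptpn6* (0.867) and *Bin1* for *Btk* (0.820). *Btk*, *Ptpn6* and *Plcg2* had no partner among the members above 0.672.

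The other genes of the pathway were taken from a list of 58, of which 56 were tested. At 48 h, 37 were lower with treatment and 2 higher, where 21.1% of all genes were lower and 26.3% higher, and their median log2 fold change was -0.19. Co-receptors (3 of 4 lower), other kinases and adaptors (11 of 16), downstream signalling (11 of 19 lower, 2 higher) and inhibitors (12 of 17 tested) all held such genes. Above a mean log2 CPM of 4, the largest falls were those of *Cr2*, a complement receptor that acts as a B cell co-receptor (-1.38 ± 0.17 on the log2 scale), *Cd72*, an inhibitory lectin-like receptor (-1.01 ± 0.12), the scaffold *Bank1* (-0.76 ± 0.07), the inositol trisphosphate receptor *Itpr2* (-0.58 ± 0.06) and the diacylglycerol kinase *Dgka* (-0.57 ± 0.09), with edgeR adjusted p of 1.07e-06 or below. *Akt1*, a kinase downstream of phosphoinositide 3-kinase, rose (0.27 ± 0.05, edgeR adjusted p = 1.64e-05).

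At 72 h, 7 of the 56 were higher and 3 lower with treatment, where 4.67% of all genes were higher and 3.88% lower, and 5 of the 7 were inhibitors. These 5 rose by 0.12 to 0.23 on the log2 scale. The inhibitor *Cd72* was lower (-0.88 ± 0.13, edgeR adjusted p = 1.48e-05), the largest change called among the 56. Of the 17 inhibitors tested 11 were not called, and their median was 0.03. From 48 h to 72 h with treatment 38 were higher and 3 lower, where 22.3% of all genes were higher and 26.8% lower. From 0 h to 48 h with treatment 1 was higher and 42 lower (27.1% and 24.7% of all genes), and from 0 h to 72 h without treatment 1 was higher and 3 lower (1.79% and 2.62% of all genes). The effects of treatment at 72 h and 48 h differed in 34 of the 56, where they differed in 3217 of all 10220 genes tested. The difference was positive in 31, as for 13.0% of all genes. These comparisons share mice.

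In CDK2hi against CDK2low cells, 43 of the 56 were lower and 10 higher, where 38.6% of all genes were lower and 36.5% higher, with a median of -0.33 on the log2 scale. Above a mean log2 CPM of 4, the largest falls were those of *Cd72* (-1.25 ± 0.06), *Bank1* (-1.01 ± 0.03), the inositol trisphosphate receptor *Itpr1* (-0.96 ± 0.04), *Dgka* (-0.89 ± 0.07) and the Src-family kinase *Blk* (-0.82 ± 0.03), with edgeR adjusted p of 2.24e-11 or below. Rises included those of the MAP kinase *Mapk3* (0.59 ± 0.06), the adaptor *Shc1* (0.36 ± 0.06), the diacylglycerol kinase *Dgkz* (0.29 ± 0.04) and *Bcl10*, an adaptor upstream of NF-κB (0.15 ± 0.04, edgeR adjusted p = 0.00227). Of the downstream genes 6 of 19 were higher and 11 lower, where 36.5% of all genes were higher. All 4 co-receptors and 15 of 17 inhibitors were lower, where 38.6% of all genes were lower. The groups were not tested against each other.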

How the data were processed

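Droplet libraries of GC B cells from hashtagged, pooled mice were analysed. The authors deposited raw UMI counts for genes and hashtags in each barcode; the file headers name Cell Ranger 8.0.1, the submitters' processing notes Cell Ranger 6.0.1, Seurat 5.1.0 and mm39. Filtered contigs served to mark cells with the B1-8hi pairing. The authors' list gives each mouse's hashtags and condition, and Day7, Day9 and Day10 were read as 0 h, 48 h and 72 h. The libraries of the first experiment were not used here.

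Positive hashtags were called with cutoffs recomputed in the way of HTODemux (Seurat 5.3.0, positive quantile 0.99). Cells were assigned to the mouse whose listed hashtags matched their positive ones, and cells with hashtags of several mice, 9.74% to 14.8% per pool, were left out. Doublets of cells of 1 mouse were not searched for. Of the mice listed for the CDK2 pools, 2 had no cells, since their hashtags were almost without counts. In each CDK2 pool 1 hashtag in use was not on the authors' list, and cells positive for it were not assigned to a mouse. Cells needed 200 genes and under 10% mitochondrial UMIs, which removed 3114 of 13187 assigned cells in the smaller pool. Phases came from CellCycleScoring. UMIs were summed per mouse and tested with edgeR 4.0.16 in R 4.3.3 (filterByExpr, TMM, quasi-likelihood, Benjamini-Hochberg over all genes tested, threshold 0.05), with a term for the pool or, in the CDK2 experiment, for the mouse. The same mice are on the authors' list of both CDK2 pools, and the deviations of a mouse correlated in the 2 pools (r = 0.203 to 0.667, each above r with any other mouse). SE is the log2 fold change divided by the root of F. The mice are the replicates. The fits were tested on simulated data. Alternatives were DESeq2 1.42.0, no filtering of low counts, library totals without TMM, no immunoglobulin genes, no filter on cells, B1-8hi cells, the highest hashtag, thinned cells (2871 UMIs in the time course, 5260 in the CDK2 pools), cells scored G1, no term for the experiment, each pool alone, only the groups compared, no block by mouse, and each mouse left out.

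Members, lists and tests were chosen with earlier results of these data known. Named were all 9 members; of the other pathway genes, the 5 largest rises and falls past the threshold with a mean log2 CPM above 4 at 48 h and in the CDK2 comparison; and the gene most like each member. Some genes that this rule names are not reported here. Tables and sequences were handled in Python 3.11.15, and 21705 of 21848 gene identifiers matched GENCODE vM39.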

Additional observations from a re-analysis of the deposited data

Results flagged for a closer look

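In 3 of the 63 sets of values of a member in a group, 1 mouse stood apart from the others by Dixon's criterion. Chance gives this in about 1 of 20 sets when the values come from 1 normal population. The time course sets join both pools, which differ in level for some members, so that this rate need not hold for them. *Syk* was at 305 CPM in Day10 replicate 8 of the smaller pool, against 365 to 416 CPM in the other 72 h untreated mice. *Cd22* was at 272 CPM in Day9DEC replicate 7, against 286 to 297 CPM in the other 48 h treated mice. *Blnk* was at 515 CPM in CDK2hi cells of mouse M3, against 543 to 563 CPM in the other mice.

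The effect of treatment differed between 72 h and 48 h by the test of the difference itself for 8 members, by 0.47 on the log2 scale for *Lyn*, 0.46 for *Cd22*, 0.39 for *Cd79b*, 0.38 for *Plcg2*, 0.35 for *Ptpn6*, 0.26 for *Btk*, 0.21 for *Cd79a* and 0.16 for *Blnk* (edgeR adjusted p of 0.0168 or below). In cells scored G1 none of the 8 passed, and the difference was -0.17 for *Cd79a* (edgeR adjusted p = 0.205).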

How the results depend on the processing

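Of 675 log2 fold changes of single members under an alternative, 602 kept their direction and their side of the threshold, 56 no longer passed, 5 newly passed and 12 changed sign. The alternative without immunoglobulin genes took out only 2 genes, so that it could hardly differ from the main fit. At 48 h, 8 members were called, 5 with only cells scored G1, 5 without a term for the experiment, 6 in the smaller pool alone, and 9, with *Plcg2*, without TMM (-0.16) or with only the groups compared (-0.10). The calls lost were those on *Cd79a*, *Cd79b* and *Ptpn6* without that term and on *Syk* and *Btk* in the smaller pool alone. At 72 h, 2 were called, 1 with only cells scored G1 (*Cd79a*, lower), 1 without a term for the experiment, 1 with only the groups compared and 0 in the smaller pool alone. With thinned cells, *Plcg2* stayed higher (0.23) and *Cd79a* was called lower (-0.14), whereas *Ptpn6* was not called. From 48 h to 72 h with treatment, 0 of 9 were called in cells scored G1, and from 0 h to 48 h with treatment 5 of 9. Other calls lost were, from 48 h to 72 h, *Cd79a* and *Cd79b* without a term for the experiment and *Btk* with thinned cells and in the smaller pool alone, and, from 0 h to 48 h, *Cd79a* without that term, *Btk* in the smaller pool alone and *Plcg2* in 5 settings beside G1. Without treatment, the 2 calls became 1 with DESeq2, without a filter on cells or in the larger pool alone, and 0 with no filter on low counts, no TMM, the highest hashtag, thinned cells, cells scored G1, no term for the experiment, only the groups compared or the smaller pool alone. In cells with the B1-8hi pairing they stayed 2, with *Cd79b* lost (-0.14, adjusted p = 0.126) and *Blnk* gained (-0.12, adjusted p = 0.0428) by edgeR. The difference of the effects was called for 4 of 8 members without a term for the experiment, for 2 in the smaller pool alone and for 0 in cells scored G1, an alternative chosen after seeing the data, where it changed sign for *Cd79a* (-0.17) and *Syk* (-0.07). In the CDK2 comparison 9 of 9 were called under each alternative. Being called was common there, with 7596 of all genes called in the main fit. Under the alternatives, 5488 (cells scored G1) to 8233 (without TMM) were called.

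Leaving out 1 mouse at a time gave 8 to 9 calls at 48 h, 1 to 2 at 72 h, 9 from 48 h to 72 h with treatment, 8 to 9 from 0 h to 48 h with treatment, 0 to 3 without treatment and 9 in the CDK2 comparison. It was not run for the difference of the effects. Without the block by mouse, 9 members and 7052 genes were called in the CDK2 comparison, against 9 and 7596 with it, so the pairing changed no call of a member. Library totals without TMM moved the median of all genes there from -0.02 to -0.22 on the log2 scale and the members to between -0.37 and -0.91.

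Signs changed at 72 h for *Cd79b* in the larger pool (0.02), *Syk* in the smaller pool (0.003), *Lyn* with thinned cells (-0.06), cells scored G1 (-0.08) and the smaller pool (-0.0068), *Cd22* with thinned cells (-0.03) and cells scored G1 (-0.12), and *Ptpn6* in cells scored G1 (-0.0008) and the smaller pool (-0.0028). In cells scored G1 they also changed for *Cd79a* from 48 h to 72 h with treatment (-0.05) and without treatment (0.03), and *Syk* changed sign without treatment in the smaller pool (-0.06). The cause was not tested.

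Over all genes, counts of calls moved by more than 1.5 times in these fits. At 48 h they went from 4843 to 711 (G1), 3158 (thinned), 2680 (no term) and 2149 (smaller pool), and at 72 h from 874 to 445 (thinned), 217 (no term) and 22 (smaller pool). From 48 h to 72 h they went from 5019 to 466 (G1), 2735 (thinned), 3104 (no term) and 2661 (smaller pool), from 0 h to 48 h from 5294 to 479 (G1), 3185 (thinned) and 3338 (no term), and without treatment from 451 to 168 (G1), 175 (thinned), 77 (no term), 256 (only the groups compared) and 3 (smaller pool). For the difference of the effects 3217 became 266 (G1), 1222 (no term) and 768 (smaller pool).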
